A study of Mus musculus with 2 samples.

Results

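Acinar cells, the exocrine cells of the pancreas that make digestive enzymes, were picked out of mouse islet preparations by their enzyme RNA. A droplet barcode stands for 1 captured cell in the usual case, and a UMI (unique molecular identifier) stands for 1 captured RNA molecule. A barcode was kept if it held 500 genes or more, 1000 UMIs or more and no more than 20% mitochondrially encoded UMIs. A kept barcode was called acinar when Prss2, Try4, Try5, Cela1, Cela2a, Cela3b, Ctrb1, Pnlip, Clps and Cpa1 together held at least 3% of its UMIs and the insulin genes Ins1 and Ins2 together held under 25%. These 10 are called the rule genes below, and as the barcodes were chosen by these measured shares, their level in them is a description. The rule found 141 acinar barcodes among 18006 kept ones, 92 of 11591 for saline and 49 of 6415 for CDS. The comparison set was the 17846 kept barcodes under 3%, and the 19 barcodes at 3% or more with insulin at 25% or more entered neither set.

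The study compared DIO mice, as the labels call them, given saline or 10 mg/kg of an agent labelled CDS for 2 weeks, after which islets were isolated. No genotype, strain, age or number of animals is given in the sources used here, and the route and the nature of CDS are not stated in the labels. Both groups shared the preparation, in which the pancreas was digested by collagenase given by way of its duct and whole islets were then hand-picked. Each group had 1 library, so no test between groups was possible, and every interval below is a 95% interval for counting error only.

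The exocrine pancreas secretes zymogens, inactive precursors of proteases that are packed in granules and released on nerve and hormone signals. Trypsin, once activated in the gut, activates the other zymogens, and a trypsin inhibitor made by the same cells guards against activation inside the gland. Acinar identity rests on the PTF1 complex, in which Ptf1a and Rbpjl take part, and on Bhlha15 (Mist1). Acinar tissue surrounds the islets, so islet preparations usually carry some acinar cells and free acinar RNA.

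The promoters of 5 rule genes are shown because PTF1 is known to bind a paired element made of CACCTG and TTTCCC, and because these genes behaved differently between the libraries. Prss2 and Ctrb1 held like shares of enzyme RNA in both, Try4 and Pnlip held larger shares in the CDS library, and Cela1 carried both motifs side by side. Each line gives the 250 bases before the start site on the gene's own strand, from RefSeq, with build GRCm38.p6, which has the coordinates of mm10. Capitals mark CACCTG or its reverse complement CAGGTG, and TTTCCC or its reverse complement GGGAAA, searched on both strands, and these motifs do not overlap here. The windows lie at chr6:41521526-41521775 (Prss2, plus strand), chr6:41302022-41302271 (Try4, plus strand), chr15:100687921-100688170 (Cela1, minus strand), chr8:111691011-111691260 (Ctrb1, minus strand) and chr19:58670115-58670364 (Pnlip, plus strand).
Prss2: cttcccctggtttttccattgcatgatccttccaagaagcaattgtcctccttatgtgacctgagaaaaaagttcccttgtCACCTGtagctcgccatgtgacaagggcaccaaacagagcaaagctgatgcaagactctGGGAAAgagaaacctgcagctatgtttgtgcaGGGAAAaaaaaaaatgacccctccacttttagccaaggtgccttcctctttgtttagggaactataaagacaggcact
Try4: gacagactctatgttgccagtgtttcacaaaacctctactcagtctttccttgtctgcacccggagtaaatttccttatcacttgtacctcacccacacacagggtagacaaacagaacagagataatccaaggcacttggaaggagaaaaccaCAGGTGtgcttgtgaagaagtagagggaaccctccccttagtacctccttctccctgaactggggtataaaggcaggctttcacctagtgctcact
Cela1: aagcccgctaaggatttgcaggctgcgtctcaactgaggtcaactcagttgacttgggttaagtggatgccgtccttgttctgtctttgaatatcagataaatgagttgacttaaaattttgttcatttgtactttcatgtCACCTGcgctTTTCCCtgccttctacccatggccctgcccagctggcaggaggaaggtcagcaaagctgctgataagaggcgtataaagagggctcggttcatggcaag
Ctrb1: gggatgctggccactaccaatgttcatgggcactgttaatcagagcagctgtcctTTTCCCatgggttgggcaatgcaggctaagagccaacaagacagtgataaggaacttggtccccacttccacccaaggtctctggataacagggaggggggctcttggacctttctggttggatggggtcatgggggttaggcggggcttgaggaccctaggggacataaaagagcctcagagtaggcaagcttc
Pnlip: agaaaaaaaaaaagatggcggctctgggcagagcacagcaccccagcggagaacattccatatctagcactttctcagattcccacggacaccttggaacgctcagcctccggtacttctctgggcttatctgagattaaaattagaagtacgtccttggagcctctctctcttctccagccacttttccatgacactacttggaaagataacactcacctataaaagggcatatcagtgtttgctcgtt
Promoter windows were found for 8 of the 10 rule genes, and none for Try5 and Clps. Of these 8 windows, 5 held CACCTG, 5 held TTTCCC and 3 held both (Prss2, Cela1 and Cela2a). Over all 32851 windows of the same length, 17.2% held CACCTG, 21.9% held TTTCCC and 3.61% held both. The windows of Ctrb1 and Cpa1 held TTTCCC alone, those of Try4 and Cela3b held CACCTG alone, and that of Pnlip held neither. A match of letters is a description of the window and not a binding site.

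The acinar share of kept barcodes was 0.794% (0.640 to 0.973) for saline and 0.764% (0.566 to 1.01) for CDS, with intervals that overlapped. A looser filter of 200 genes, 500 UMIs and 25% mitochondrial UMIs gave 1.58% and 3.55%, so the order of the libraries turned with the filter. An enzyme limit of 25% in place of 3% gave 0.328% and 0.436%. The 3 saline barcodes nearest above the limit had 3.05%, 3.27% and 3.29% rule genes, and the nearest below had 2.88%, 2.78% and 2.61%. In the CDS library the nearest above had 3.38%, 3.54% and 3.57%, and the nearest below had 2.99%, 2.90% and 2.90%. Between 3% and 4% lay 8 saline and 3 CDS barcodes, and between 2% and 3% lay 13 and 7. Both libraries shared 25 barcode sequences before any filter, and 0 sequences were acinar in both. Scrublet called none of the 141 acinar barcodes a doublet, against 5.50% and 4.41% of kept barcodes.

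Acinar barcodes were shallower and less diverse than the others. Their UMIs ran from 1059 through a median of 5880 to 55651 for saline and from 1336 through 7880 to 108296 for CDS, while other kept barcodes had medians of 10133 and 19963. Median gene numbers were 1197 and 1157, against 3435 and 4617 in other kept barcodes. Summed acinar UMIs were 810850 and 724251, of which the deepest barcode alone held 6.86% for saline and 14.95% for CDS. Sums over the CDS acinar barcodes therefore lean on few barcodes, and values per barcode are given beside them.

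Rule gene RNA ran from 3.05% through a median of 17.3% to 63.7% of UMIs over the saline acinar barcodes, and from 3.38% through 27.0% to 50.6% over the CDS ones. Other kept barcodes had medians of 0.0213% and 0.0256%. From 3% to 5%, 5% to 10%, 10% to 25%, 25% to 50% and above 50% stood 11, 16, 27, 30 and 8 saline barcodes, and 6, 9, 6, 27 and 1 CDS barcodes. The libraries thus differed in their mix, with 38 of 92 saline and 28 of 49 CDS barcodes at 25% or more, and results are given for these enzyme-rich barcodes as well.

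GEO's cell type label for both libraries is islet b cell, which the acinar barcodes do not match. Secretory genes that the rule did not use were looked at next. Free acinar RNA would carry them along with the rule genes, so they cannot tell an acinar cell from a barcode holding such RNA. The 36 other genes for proteases, lipases, amylases, ribonuclease and granule proteins in the files held a median of 3.01% of UMIs (0.340 to 18.4) in saline and 5.62% (0.733 to 20.9) in CDS acinar barcodes. Across barcodes of 1 library, which share their free RNA, this share of the UMIs outside the rule genes went with the rule gene share at a Spearman rho of 0.94 over 92 saline and 0.93 over 49 CDS barcodes. Among enzyme-rich barcodes the medians were 7.05% and 11.1%, against 1.25% and 1.23% in barcodes between 3% and 10%. The 6 genes named as acinar markers are rule genes, so their presence describes the choice and supports nothing. They were found in both libraries, in 84 (Clps) to 92 (Prss2) of 92 saline barcodes and in 47 to 49 of 49 CDS barcodes.

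Barcodes at the low end of the range looked different in other respects. Mitochondrially encoded UMIs had a median of 1.58% between 3% and 10% rule genes and 0.411% at 25% or more for saline, and of 2.73% and 0.177% for CDS. Malat1, a long RNA that stays in the nucleus, had medians of 1.44% and 0.0679% for saline and of 3.13% and 0.0663% for CDS. After each barcode was thinned to 1000 UMIs, the median number of genes was 614 and 317 for saline and 602 and 272.5 for CDS. As rule genes take up part of every barcode, each other share is lower by construction where they are higher. With rule genes left out of the total, mitochondrially encoded UMIs still had medians of 1.64% and 0.754% (saline) and of 3.01% and 0.312% (CDS). In other kept barcodes the median mitochondrial shares were 2.48% and 1.43%.

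**Figure D1:**
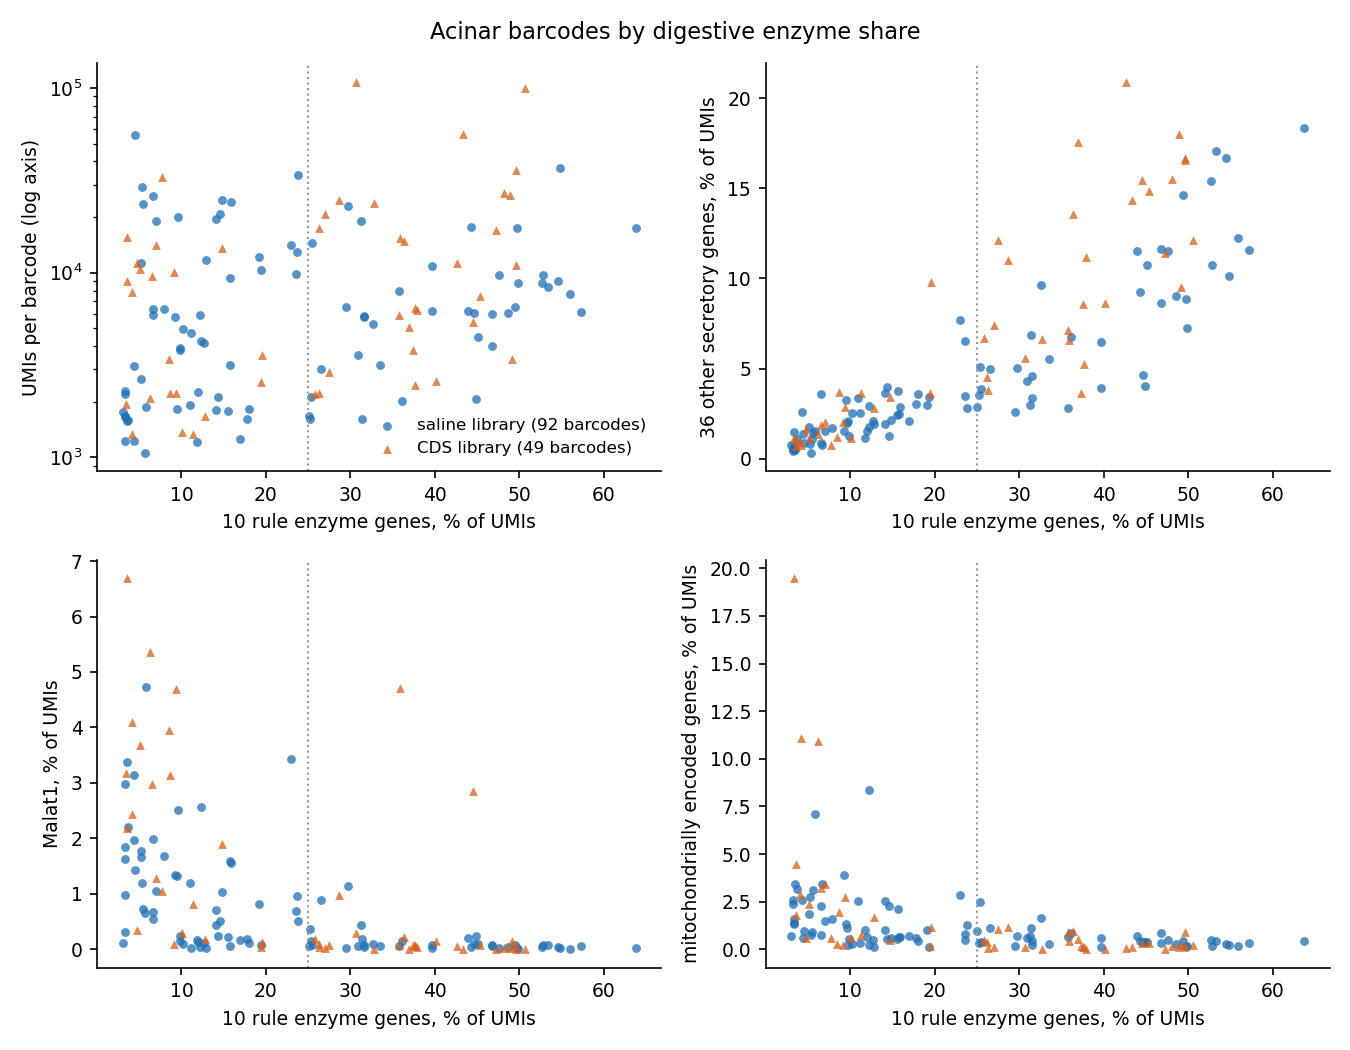
Each point is 1 acinar barcode of the saline (circles, 92) or CDS (triangles, 49) library, with the percent of UMIs from the 10 rule genes on the x axis and, on the y axes, UMIs (log axis) and the percent of UMIs from 36 other secretory genes, Malat1 and mitochondrially encoded genes. The dotted line marks 25%, right of which Malat1 and mitochondrial shares are mostly near 0, and the 2 deepest CDS barcodes (108296 and 99403 UMIs) stand out at the top.

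Markers of other cells were found in some acinar barcodes. Of the 92 saline barcodes, 8 passed the limits set for lymphocyte, endocrine hormone or endothelial genes (4 with at least 3 UMIs of B or T cell genes, 2 with at least 5% of UMIs from Gcg, Sst or Ppy, and 2 with at least 5 UMIs of endothelial genes), and of the 49 CDS barcodes 3 did (all with Gcg). None of these 11 had 25% or more rule genes. These limits do not cover all endocrine, duct or insulin RNA. Alpha cell markers reached 5 UMIs in 32 saline and 30 CDS acinar barcodes, and held up to 12.5% and 10.6% of UMIs. Pancreatic polypeptide cell markers did so in 49 and 37, up to 10.5% and 4.74%, and delta cell markers in 6 and 10. Of other kept barcodes, 6851 of 11487 saline and 5672 of 6359 CDS ones reached 5 UMIs of alpha cell markers. Beta cell markers held 4.89% and 3.44% of summed acinar UMIs (10 of 10 genes above 0 in each library), against 29.7% and 37.5% in other kept barcodes. In the CDS acinar barcodes all B, T, stromal and dendritic cell markers were at 0, and in the saline ones B markers summed to 64 and T markers to 48 UMIs. At least 5 UMIs of the 9 duct markers were present in 36 of 92 saline and 15 of 49 CDS acinar barcodes, where they held 0.089% and 0.052% of summed UMIs. Endothelial markers summed to 63 and 12 UMIs and macrophage markers to 15 and 10. Plasma cell markers, a list that holds the broadly expressed Xbp1, reached 5 UMIs in 24 saline and 9 CDS acinar barcodes and held 0.0448% and 0.0218% of their UMIs, against 0.0432% and 0.0164% in other kept barcodes, and stromal markers reached 5 UMIs in 2 saline and 0 CDS barcodes. Insulin genes held 10% or more in 11 saline and 4 CDS acinar barcodes, up to 24.6% and 15.2%, and none of these 15 had 25% or more rule genes.

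Enzyme RNA was also found where it should be lacking. After thinning to 1000 UMIs, a rule gene UMI was seen in 45.4% (42.7 to 48.1) of 1313 saline barcodes with B or T cell markers and in 49.0% (34.4 to 63.7) of 49 such CDS barcodes, against 80.7% and 93.9% before thinning, at median depths of 2572 and 3303 UMIs. Barcodes with endothelial markers gave 24.7% and 45.1%, and insulin-rich barcodes gave 17.4% and 25.8%. Barcodes with B or T markers held a mean of 0.867 and 2.49 rule gene UMIs per 1000, against 233 and 257 in acinar barcodes, which the rule itself set at 3% or more.

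The make-up of the enzyme RNA differed between the libraries. Ctrb1 (chymotrypsinogen B) and Prss2 (a trypsinogen) held nearly the same part of rule gene UMIs in both, 30.2% and 29.5% for Ctrb1 and 17.6% and 17.7% for Prss2 in the saline and CDS acinar barcodes. Try5, another trypsinogen, held 30.9% of saline and 9.60% of CDS rule gene UMIs. The opposite order was seen for Try4 (3.18% and 9.35%), for Clps, the colipase that pancreatic lipase needs (1.37% and 7.49%), for Pnlip, pancreatic lipase itself (1.54% and 5.67%), and for the elastase Cela2a (2.57% and 5.47%). Cela3b (4.44% and 6.68%), Cela1 (3.37% and 3.84%) and the carboxypeptidase Cpa1 (4.77% and 4.68%) were closer.

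The same contrast was present outside the acinar barcodes. In other kept barcodes Try5 held 21.4% of rule gene UMIs in the saline and 7.78% in the CDS library, Try4 held 4.18% and 9.48%, Pnlip 3.76% and 7.31%, and Clps 2.22% and 5.25%. Barcodes with B or T markers had Try5 at 21.1% and 7.51%. The make-up of enzyme RNA therefore moved with the library also in barcodes that are not acinar, which come from the same preparation and are not independent of it. The part of free RNA in this was not tested.

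**Figure D2:**
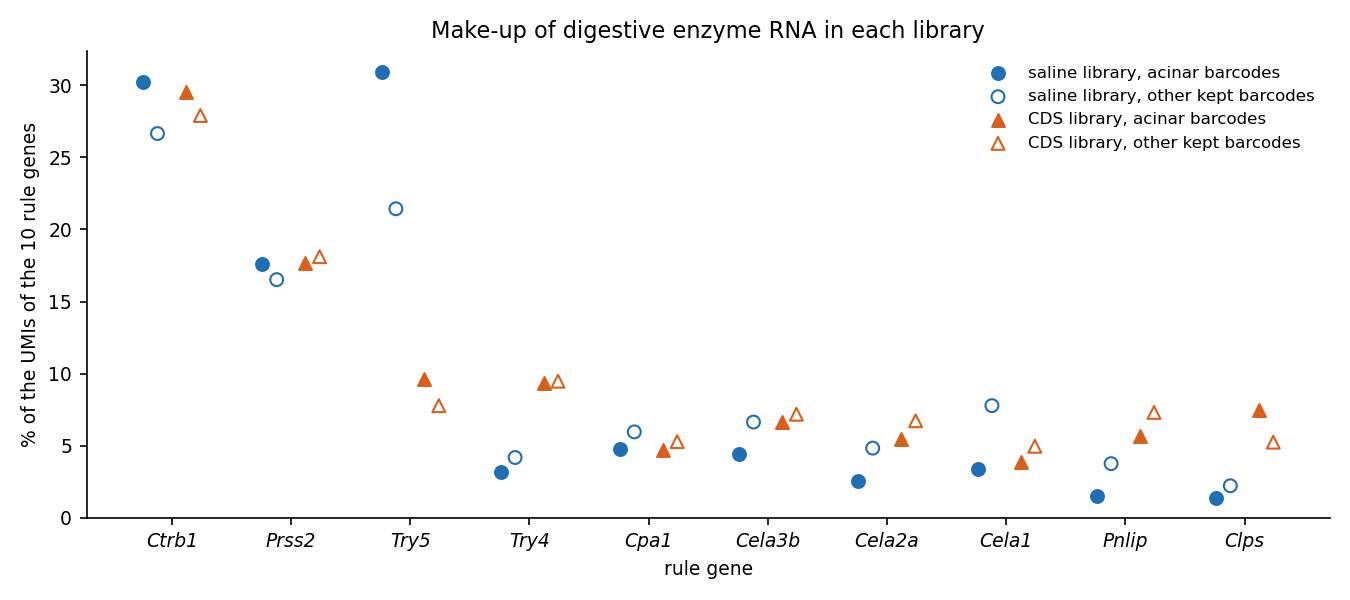
Percent of all UMIs of the 10 rule genes that each gene holds, for saline (circles) and CDS (triangles) libraries, in acinar barcodes (filled) and other kept barcodes (open). Try5 stands at 30.9% and 21.4% in the saline library against 9.60% and 7.78% in the CDS library, whereas Ctrb1 and Prss2 hold like parts in both.

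Among single barcodes, Try5 was the leading rule gene in 46 of 92 saline and 4 of 49 CDS acinar barcodes, and Ctrb1 led in 41 and 40. Within the enzyme-rich barcodes Try5 led in 25 of 38 saline and 1 of 28 CDS barcodes. Try5 ran from 1.22% through 13.9% to 23.9% of UMIs in the 38 enzyme-rich saline barcodes and from 0.882% through 3.15% to 9.46% in the 28 CDS ones. The ranges overlapped, but all 28 CDS barcodes lay under the saline median. Try4 ran from 0% through 0.724% to 4.91% in the enzyme-rich saline barcodes and from 0.452% through 2.60% to 7.03% in the CDS ones, of which 26 lay above the saline median.

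Try4 and Try5 are neighbouring genes on chromosome 6 (mm10, Try4 at 41302269 to 41305532 and Try5 at 41311233 to 41316841, both protein coding), with Prss2 farther along at 41521787 to 41525079. Their longest transcripts were 97.1% identical over 801 aligned bases, and 96.3% identical over the last 300 bases, the end that a 3' assay reads, so how reads were split between them is uncertain. Prss2 was 90.1% identical to Try4 and 88.9% to Try5. As a part of Try4 plus Try5 UMIs in each barcode, Try5 ran from 22.6% through a median of 96.4% to 100% over 92 saline barcodes and from 9.09% through 53.0% to 98.6% over 49 CDS barcodes. It was above 80% in 71 of 92 saline and 6 of 49 CDS barcodes and under 50% in 8 and 23. Among enzyme-rich barcodes the medians were 95.1% and 52.4%. Most saline barcodes thus held far more Try5 than Try4 and a few held more Try4, whereas the CDS barcodes were spread over most of the range.

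**Figure D3:**
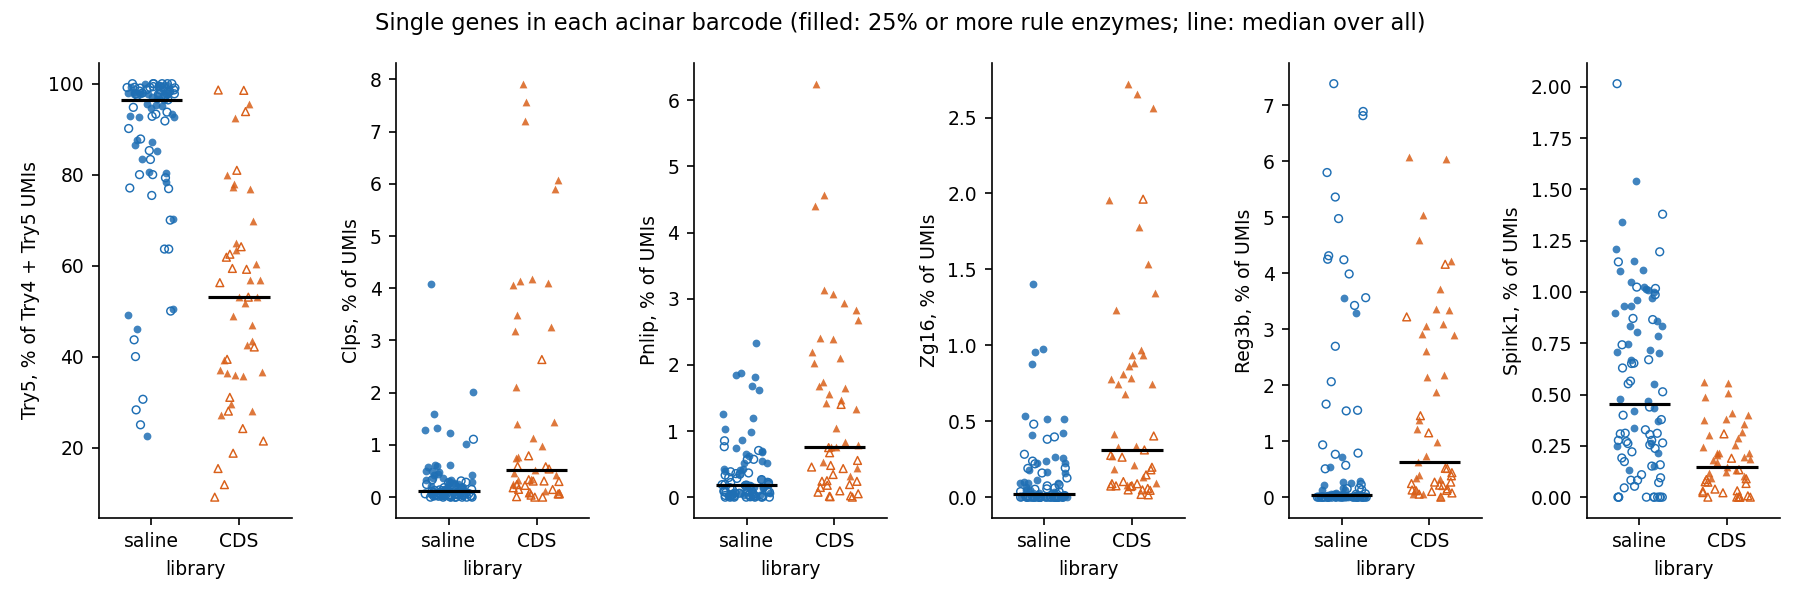
Each point is 1 acinar barcode (circles for the 92 of the saline library and triangles for the 49 of the CDS library, filled at 25% or more rule genes, spread sideways at random), the black line is the median over all acinar barcodes of a library, and the y axes give Try5 as a percent of Try4 plus Try5 UMIs and Clps, Pnlip, Zg16, Reg3b and Spink1 as percents of all UMIs. Try5 medians are 96.4% and 53.0%, Spink1 medians are 0.455% and 0.147%, and the other 4 genes have higher medians in the CDS library with overlapping ranges.

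Ratios between the libraries were taken on summed UMIs per library, scaled to CPM, the usual per-library scaling of counts, with TMM factors from edgeR, which centre the bulk of genes. With 1 library a group a gene counted as past the limit at a CDS over saline ratio of at least 1.5 or at most 1/1.5. Over the 2851 genes with at least 50 UMIs in all and a UMI in each library, 13.3% were past the limit on the higher and 17.4% on the lower side, 380 and 495 genes, with a median log2 ratio of -0.05. Among the enzyme-rich barcodes 853 genes were measured, with 21.0% higher and 17.0% lower. Plain CPM moved the median log2 ratio by -0.58, to 83 higher and 1519 lower genes. All 495 lower and 83 of the 380 higher genes kept their side under it, so ratios are relative to the scaling. The TMM factors were 1.22 for saline and 0.817 for CDS, which raises every ratio above that of plain CPM. Percents of UMIs, where given, do not depend on the scaling. Of the 82 named genes 48 were higher and 21 lower past the limit, and without the 11 barcodes with lymphocyte, endocrine hormone or endothelial markers 47 and 21 of these kept their side. Without the 15 barcodes of 10% insulin or more 47 and 21 kept it as well, with 344 higher and 532 lower genes of 2500.

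Of the lipid-digesting genes outside the rule, 4 of 4 lipases were past the limit on the higher side in the CDS library. Clps and Pnlip were higher too, but they helped choose the barcodes, so their values are a description. Clps ran from 0% through 0.125% to 4.09% of UMIs over saline acinar barcodes and from 0% through 0.526% to 7.92% over CDS ones. The ranges overlapped, with 8 of 49 CDS barcodes above the highest saline one, and its ratio was 11.04 (10.6 to 11.5) on summed UMIs. Pnlip ran from 0% through 0.180% to 2.33% and from 0% through 0.764% to 6.25%, with 10 of 49 CDS barcodes above all saline ones and a ratio of 7.42 (7.13 to 7.72). Cel, the bile salt-activated carboxyl ester lipase, had a ratio of 6.15 (5.66 to 6.68) and medians of 0.0105% and 0.231%, and was seen in 50 of 92 and 46 of 49 barcodes. Pla2g1b, pancreatic phospholipase A2, stood at 4.76 (4.05 to 5.60), the lipase-related Pnliprp1 at 3.005 (2.90 to 3.11) and Pnliprp2 at 2.79 (2.52 to 3.10).

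Among enzyme-rich barcodes the same lipases were closer. Their median log2 ratio was 0.99 there against 1.92 over all acinar barcodes, and 3 of 4 remained past the limit. Clps had a log2 ratio of 2.49 and Pnlip of 1.94 in these barcodes, and medians of 0.343% and 1.41% (Clps) and of 0.473% and 1.71% (Pnlip). Clps and Pnlip are among the genes that chose these barcodes, so these values are a description.

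Proteases outside the rule went both ways. Of 9 measured, 5 were past the limit on the higher and 2 on the lower side, with a median log2 ratio of 0.95 over all acinar barcodes and of -0.0014 in the enzyme-rich ones. Ctrl, a chymotrypsin-like protease, ran from 0% through 0.0798% to 3.71% in saline and from 0.0152% through 0.381% to 3.09% in CDS barcodes, with a ratio of 4.63 (4.41 to 4.87). The carboxypeptidase Cpb1 stood at 3.17 (3.02 to 3.33). The kallikrein Klk1 stood at 2.04 (1.94 to 2.14) and lay inside the limit among enzyme-rich barcodes, where its medians were 0.537% and 0.482%.

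The 2 lower proteases were trypsinogen-like genes of the same chromosome. 1810009J06Rik (chromosome 6, 40964754 to 40968435) had 431 UMIs in 39 of 92 saline barcodes and 3 UMIs in 2 of 49 CDS barcodes, a ratio of 0.0117 (0.0024 to 0.0344). Gm2663 (chromosome 6, 40995830 to 40999479) had 517 UMIs in 44 saline and 22 UMIs in 8 CDS barcodes, a ratio of 0.0714 (0.0444 to 0.109). Of the saline UMIs, 5 barcodes held at least 50% of those of 1810009J06Rik and 3 held at least 50% of those of Gm2663. Their transcripts were 99.4% identical over 862 aligned bases, so counts between them are uncertain, while Try4 was 72.5% identical to each. The trypsinogen-like Try10 at 1.19 (1.03 to 1.37) and Prss3 at 1.18 (0.759 to 1.82) lay inside the limit.

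Of 11 measured granule and protective proteins, 10 were higher and 1 was lower in the CDS library, against 6 and 1 both in enzyme-rich barcodes and by the mean over barcodes. Zg16, a lectin of the zymogen granule membrane, ran from 0% through 0.0186% to 1.40% in saline and from 0.0152% through 0.311% to 2.72% in CDS barcodes, with 47 of 49 CDS barcodes above the saline median and a ratio of 9.42 (8.82 to 10.1). Sycn (syncollin, another granule protein) had medians of 0.266% and 1.27% and a ratio of 4.26 (4.12 to 4.39). Serpini2, a pancreas-rich serpin, had 16 and 55 UMIs and a ratio of 5.77 (3.26 to 10.8). In the same direction but smaller were Tff2, a trefoil peptide, at 2.19 (2.01 to 2.38), the granule protein Gp2 at 1.91 (1.68 to 2.17) and Cuzd1 at 1.56 (1.32 to 1.86). Before scaling, Gp2 held 0.0560% of summed saline and 0.0712% of summed CDS acinar UMIs, and Cuzd1 held 0.0345% and 0.0360%. Among enzyme-rich barcodes the Gp2 medians were 0.0750% in both libraries.

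Spink1, the trypsin inhibitor of acinar cells, was the lower one. It ran from 0% through 0.455% to 2.01% of UMIs over saline acinar barcodes and from 0% through 0.147% to 0.560% over CDS ones. Among enzyme-rich barcodes it ran from 0.134% through 0.817% to 1.54% (saline, 38) and from 0.0910% through 0.230% to 0.560% (CDS, 28), with overlapping ranges and all 28 CDS barcodes under the saline median. The ratio on summed UMIs was 0.582 (0.550 to 0.617).

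Amylase RNA was scarce in both libraries. Amy2a5, pancreatic amylase, had 30 UMIs in 17 of 92 saline and 57 UMIs in 16 of 49 CDS barcodes, 0.0037% and 0.0079% of acinar UMIs, while its near copies Amy2a1, Amy2a2, Amy2a3 and Amy2a4 had 1 to 9 UMIs each in a library. Reads that match several copies can be lost or split in counting, so these levels are uncertain. The ratio was 3.19 (2.01 to 5.14) for Amy2a5 and 1.52 (1.01 to 2.29) for the salivary-type Amy1, and the latter was -0.02 on the log2 scale in enzyme-rich barcodes. Rnase1, the pancreatic ribonuclease, had medians of 0.121% and 0.134%, close to each other, and a ratio of 4.40 (4.15 to 4.66) on summed UMIs, where 3 CDS barcodes held at least 50% of its UMIs.

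Transcription factors of acinar identity were thinly covered. A UMI of Ptf1a, Rbpjl or Bhlha15 was found in 18 of 92 saline acinar barcodes (19.6%, 12.03 to 29.1) and in 17 of 49 CDS ones (34.7%, 21.7 to 49.6). Among enzyme-rich barcodes they were found in 10 of 38 and 14 of 28. After thinning to 1000 UMIs only 3 and 2 barcodes kept one, so no difference was detectable at this depth. Rbpjl, with 15 and 18 UMIs, was still 334 and 518 times its level in other kept barcodes, on CPM without rule genes. Of 12 factors 4 were measured, with 0 higher and 2 lower. These were Mecom at 0.164 (0.0984 to 0.261), where 1 saline barcode held at least 50% of its 204 UMIs and the mean over barcodes gave a log2 ratio of 0.24, and Creb3l2 at 0.528 (0.287 to 0.925).

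Receptors and secretion genes were likewise sparse, with 7 of 25 measured, 1 higher and 0 lower. Cckar, the cholecystokinin receptor, had 32 UMIs in 22 saline and 8 UMIs in 6 CDS barcodes, and was too low to be measured. Aqp12, a water channel of acinar cells, was the higher one, with 23 and 58 UMIs and a ratio of 4.23 (2.57 to 7.19). Of the 9 adrenergic receptor genes none was measured, and all together they held 0.000493% and 0.00124% of acinar UMIs. Adra2a had 4 UMIs in the saline and 2 in the CDS acinar barcodes.

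Reg genes, which code for secreted lectin-like proteins that acinar cells make under injury and inflammation, were higher in the CDS library in 6 of 6 measured cases, with a median log2 ratio of 1.94. In enzyme-rich barcodes 6 of 6 were higher too, with a median of 2.59. Reg3a had 112 UMIs in 19 of 92 saline barcodes and 1372 UMIs in 37 of 49 CDS barcodes, a ratio of 20.6 (16.9 to 25.1), and 17 of 49 CDS barcodes exceeded all saline ones. Reg3d stood at 9.75 (7.16 to 13.5), Reg2 at 4.46 (4.29 to 4.64), Reg3b at 3.31 (3.22 to 3.40), Reg3g at 2.80 (2.49 to 3.15) and Reg1 at 2.66 (2.60 to 2.71).

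Reg3b spread widely within each library. Over all acinar barcodes it ran from 0% through 0.0383% to 7.39% of UMIs in the saline and from 0% through 0.637% to 6.08% in the CDS library, so the highest barcode was a saline one. Among enzyme-rich barcodes it ran from 0% through 0.0333% to 3.56% and from 0% through 2.17% to 6.08%, with 24 of 28 CDS barcodes above the upper quartile of the saline ones. The highest saline Reg3b thus lay below 25% rule genes and the highest CDS Reg3b at 25% or more. Reg1 was more even, with medians of 1.12% and 1.55% over all acinar barcodes. Outside the acinar barcodes the same genes were also higher in the CDS library, with a median log2 ratio of 2.43 in other kept barcodes.

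The endoplasmic reticulum genes that carry secretory load were close between the libraries. Of 33 measured genes for entry and folding, 6 were higher and 0 lower, with a median log2 ratio of 0.16. In enzyme-rich barcodes 1 of 19 was higher and 4 were lower (median -0.13), and by the mean over barcodes 5 were higher and 4 lower (median -0.05). The 6 higher on UMIs summed over all acinar barcodes included P4hb, a disulfide isomerase, at 1.91 (1.499 to 2.44). Also among these 6 were the translocon and signal-sequence receptor subunits Sec61b at 1.73 (1.44 to 2.08) and Ssr4 at 1.65 (1.39 to 1.97). The chaperone Hspa5 (BiP) had medians of 0.0432% and 0.0299% and a ratio of 0.982 (0.829 to 1.16). Of 11 stress-response genes, 6 were higher and 1 was lower, with a median log2 ratio of 0.68. In enzyme-rich barcodes 2 of 4 were higher and 0 lower (median 0.61), and by the mean over barcodes 2 were higher and 0 lower (median 0.27). On UMIs summed over all acinar barcodes the higher ones included Asns, asparagine synthetase, at 1.96 (1.46 to 2.64), and Herpud1 at 1.80 (1.15 to 2.81). The lower one was Atf3 at 0.498 (0.311 to 0.772), with at least 50% of its saline UMIs in 2 barcodes.

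Nupr1, a stress-induced chromatin protein, was by far the most abundant of these. It ran from 0% through 1.09% to 8.24% in saline and from 0% through 0.749% to 9.96% in CDS barcodes. Its ratio was 1.75 (1.71 to 1.79) on summed UMIs, of which the deepest CDS barcode held 41.3% in that library. Without the deepest barcode of each library the ratio was 1.13, inside the limit. Its log2 ratio was -0.16 in enzyme-rich barcodes, where the medians were 2.92% and 1.17%. Its direction therefore turned with the set of barcodes. In genes of amino acid and creatine supply, 3 of 6 measured were higher, among them the creatine-synthesis enzymes Gatm at 3.01 (1.78 to 5.18) and Gamt at 2.11 (1.44 to 3.13), of which Gamt had a log2 ratio of -0.05 in enzyme-rich barcodes. In those barcodes 0 of 3 measured genes of this list were higher and 0 lower (median -0.34). By the mean over barcodes 2 were higher and 0 lower (median 0.06).

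Injury and duct-conversion genes split, with 3 of 13 higher and 5 lower over all acinar barcodes but 7 of 8 higher and 0 lower in enzyme-rich ones. The keratin Krt8 had medians of 0.0596% and 0.0879% and a ratio of 2.06 (1.92 to 2.20), and Cldn4, a tight-junction protein, had 53 and 138 UMIs and a ratio of 4.37 (3.16 to 6.12), with at least 50% of its CDS UMIs in 1 barcode. Krt19, the keratin that marks ducts, stood at 0.914 (0.775 to 1.08), Clu (clusterin) at 0.833 (0.802 to 0.865) and the lipocalin Lcn2 at 0.445 (0.310 to 0.627). In 2 saline barcodes lay at least 50% of the UMIs of Lcn2. Immediate early genes, which respond to tissue dissociation, were lower in 6 and higher in 0 of 15 cases, with Fos at 0.382 (0.276 to 0.520), Jun at 0.551 (0.407 to 0.735) and Fosb at 0.202 (0.0780 to 0.444). At least 50% of the saline Fos UMIs lay in 3 barcodes, and in enzyme-rich barcodes 4 of 8 of these genes were higher and 3 lower.

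Metallothioneins, small metal-binding proteins, were higher in the CDS library. Mt1 ran from 0% through 0.227% to 3.90% in saline and from 0.0221% through 0.853% to 5.48% in CDS barcodes, with 42 of 49 CDS barcodes above the saline median and a ratio of 4.29 (4.14 to 4.44). Mt2 stood at 3.57 (3.26 to 3.92). Of the 20 measured antioxidant and metallothionein genes 6 were higher and 1 was lower (median log2 ratio 0.26), against 13.3% and 17.4% of all measured genes. In enzyme-rich barcodes 5 of 15 were higher and 3 lower (median 0.08). By the mean over barcodes 7 were higher and 5 lower (median -0.05), and plain CPM gave a median of -0.33. The list as a whole therefore had no steady direction. Mt1 was also higher in other kept barcodes, at a ratio of 3.50.

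Housekeeping groups depended on the barcodes summed and on the scaling. Glycolysis genes were lower in 5 and higher in 0 of 10 cases over all acinar barcodes, with Gapdh at 0.533 (0.470 to 0.603), Eno1 at 0.468 (0.336 to 0.641) and Pkm at 0.536 (0.424 to 0.673), but 6 of 8 were higher in enzyme-rich barcodes. Ribosomal protein genes were higher in 27 and lower in 0 of 79 cases on summed UMIs, whereas the mean over barcodes gave 0 higher and 16 lower. Nucleus-encoded genes for oxidative phosphorylation were higher in 6 and lower in 0 of 52 cases, against 1 and 13 by the mean over barcodes, and of 12 mitochondrially encoded genes 0 were past the limit in either direction, against 7 higher by the mean over barcodes and 3 of 10 lower in enzyme-rich barcodes. Over all 2851 genes the mean over barcodes put 20.1% higher and 25.04% lower, so the lower counts of the ribosomal and oxidative phosphorylation genes were near or under that share. On summed UMIs 13.3% of all genes were higher and 17.4% lower, and the 6 of 52 higher oxidative phosphorylation genes were near that share. Median log2 ratios over all acinar barcodes, enzyme-rich barcodes and by the mean over barcodes were -0.66, 0.83 and -0.89 for glycolysis, 0.44, 0.28 and -0.33 for ribosomal, and 0.17, -0.06 and -0.37 for oxidative phosphorylation genes, while those of all genes were -0.05, 0.04 and -0.09. For Reg genes they were 1.94, 2.59 and 1.38, for the 4 lipases 1.92, 0.99 and 1.19, and for granule and protective proteins 1.14, 0.67 and 0.87. Plain CPM over all acinar barcodes gave medians of -1.24 for glycolysis, -0.14 for ribosomal and -0.42 for oxidative phosphorylation genes, with -0.64 for all genes.

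**Figure D4:**
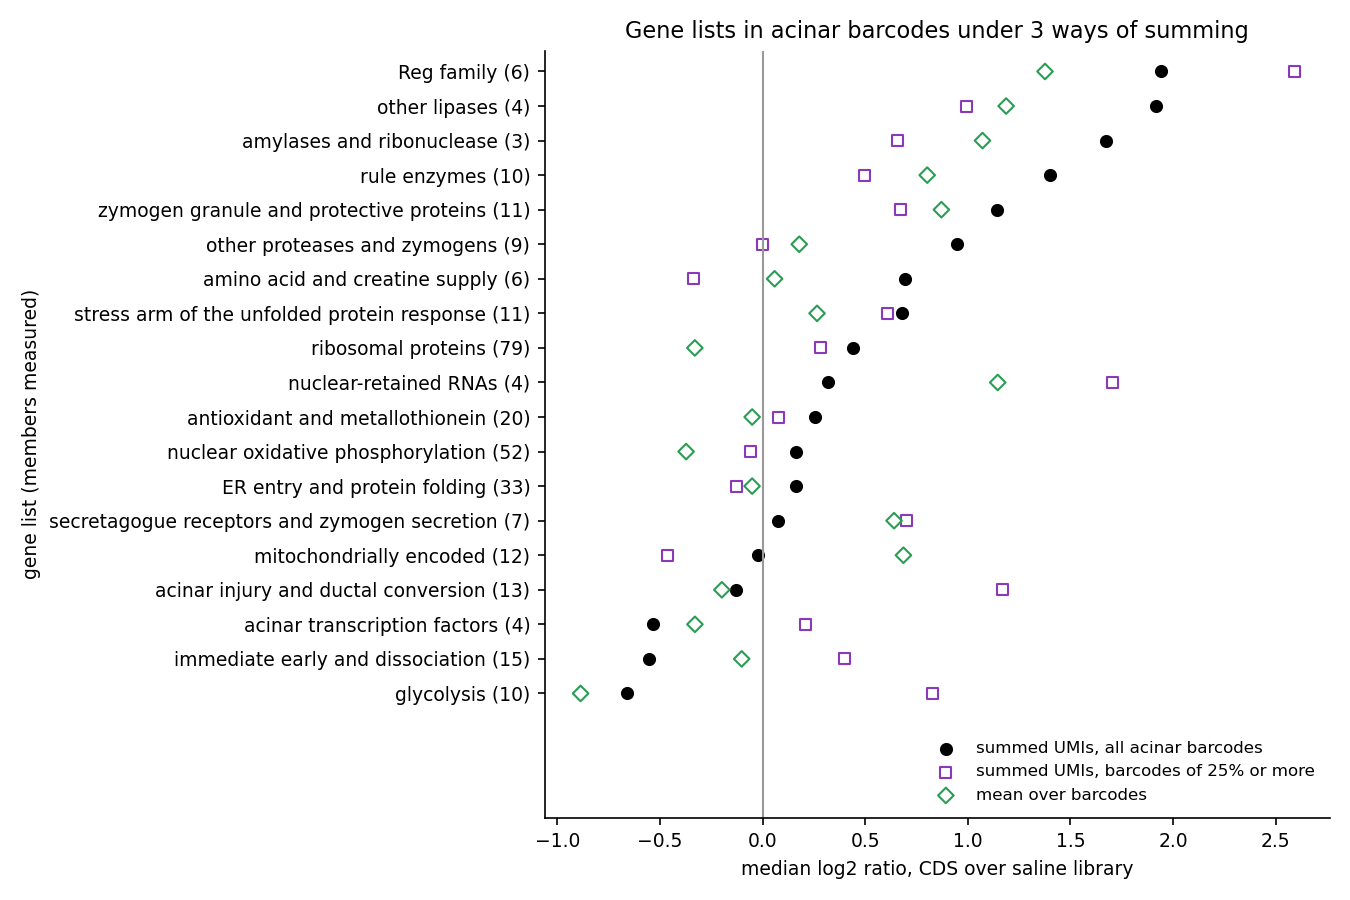
Median log2 ratio, CDS over saline, of the measured members of each gene list (number in brackets), from UMIs summed over all acinar barcodes (black circles), from those of 25% or more rule genes (squares) and from the mean over barcodes (diamonds). Reg genes and lipases stay right of 0 under all 3, and glycolysis genes turn from -0.66 to 0.83 in enzyme-rich barcodes.

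Across all measured genes, the 10 highest ratios that met the rule for named genes belonged to Reg3a, Clps, Reg3d, Zg16, Pnlip, Cel, Try4, Pla2g1b, Ctrl and Reg2, all secretory genes described above. At least 50% of the CDS UMIs of each lay in 3 to 5 of the 49 barcodes. Clps, Pnlip and Try4 are rule genes that helped choose the barcodes, so their values are a description. The 10 lowest were 1810009J06Rik, Gm2663 and Mecom, described above, and Thbs1, Fermt1, Sox4, Tgfbr1, Procr, Ly6a and Pmepa1. Thbs1, a matrix glycoprotein, had 99 UMIs in 12 saline barcodes and 2 UMIs in 2 CDS barcodes, a ratio of 0.0339 (0.00405 to 0.126). Sox4, a progenitor transcription factor, had 297 UMIs in 29 and 22 UMIs in 11 barcodes, a ratio of 0.124 (0.0767 to 0.192). At least 50% of the saline UMIs of these 7 genes lay in 2 to 4 barcodes each, so these low ratios rest on few barcodes. In enzyme-rich barcodes Mecom, Procr and Pmepa1 turned to log2 ratios of 3.11, 1.02 and 1.11, on only 13, 23 and 12 UMIs over both libraries. Without the deepest barcode of each library the log2 ratio went from -2.60 to -1.39 for Mecom, from -3.95 to -2.97 for Fermt1, from -3.01 to -2.31 for Sox4, from 2.13 to 0.83 for Cldn4, from -2.30 to -1.22 for Fosb and from -1.39 to -0.65 for Fos. Leaving out the deepest acinar barcode of each library kept 47 of the 48 named genes on the higher and 21 of 21 on the lower side, while the mean over barcodes kept 31 and 13.

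Against other kept barcodes, acinar barcodes were compared within each library on CPM without the rule genes, and a gene counted as past the limit only when it was so in both libraries. Of 2838 genes, 18.1% were higher and 14.2% lower, 515 and 403 genes. Reg genes led, with Reg3b at 2736 and 2406 times, Reg1 at 1911 and 1930.4 times and Reg2 at 2998 and 1332 times their level in the other barcodes of the saline and CDS libraries. Outside the enzyme lists, the 15 highest held all 6 measured Reg genes and the kallikrein Klk1b5, Cabp2, Krt20, Krt19, Gamt, Serpinb1a, Clu, Nupr1 and Npy. Krt19 was 177 (155 to 202) and 131 (112 to 153) times higher, Clu 76.2 (74.3 to 78.2) and 51.5 (49.8 to 53.2) times, and Nupr1 46.7 (45.9 to 47.5) and 45.9 (45.1 to 46.7) times. Barcodes under 25% rule genes held 363 of the 424 saline and 31 of the 231 CDS acinar UMIs of Krt19. For Clu they held 6295 of 8342 and 1250 of 4141. The saline values of both thus rest mostly on the barcodes poorer in enzyme RNA.

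Of the secretory machinery the ribosomal part was higher in acinar barcodes and the folding part was not. Ribosomal protein genes were past the limit on the higher side in 77 of 79 cases and held medians of 11.5% and 8.53% of acinar UMIs, against 4.59% and 5.96% in other kept barcodes. Genes for endoplasmic reticulum entry and folding were lower in 18 and higher in 0 of 33 cases, with Hspa5 at 0.581 and 0.550 times its level in the other barcodes, most of which are endocrine. The rule genes were left out of this total, so the space they take up does not enter the ratio. Insulin RNA stayed in the total of the other barcodes, where beta cell markers held 29.7% and 37.5% of summed UMIs. That space lowers other genes there and so raises these ratios. Mitochondrially encoded genes were lower in 7 of 12 cases, and injury and duct-conversion genes were higher in 9 and lower in 1 of 13. With all genes in the total the counts were 291 higher and 959 lower genes, a larger share of lower ones. Against other kept barcodes with insulin under 25% they were 323 higher and 833 lower, and the counts per list in that setting are not given here.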

How the data were processed

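Droplet 3' RNA-seq gave 1 library per group. The deposited matrices hold whole-number UMI counts per gene and barcode, made by the authors with Cell Ranger 7.1.0, per the file headers, on mm10, per the submitters' processing notes, which also name Seurat 4 and edgeR. The labels name both v3.1 and v2 chemistry, and the number of animals per library is not given in the sources used here. Counts were read with Python 3.11.15, pandas 2.3.3, NumPy 2.4.6, SciPy 1.17.1 and Scanpy 1.11.5. Total UMIs were 124343325 (saline, 12453 barcodes) and 141191447 (CDS, 7268 barcodes). Acinar UMIs were summed per library and scaled with TMM factors (edgeR 4.0.16 in R 4.3.3). DESeq2 1.42.0 size factors were an alternative. With 1 library a group no test was run. Ratios carry exact 95% intervals of 2 Poisson counts and shares exact Clopper-Pearson intervals, covering counting error only, and the ratio step was tested on simulated data. Scrublet (0.8% expected per 1000 barcodes) marked doublets, which were kept. The members and gene lists were chosen with earlier results of these data known. Named genes were the 10 rule genes, per list the 3 members of at least 50 CPM in 1 library whose log2 ratio lay farthest from 0, the 10 highest and 10 lowest ratios among genes that also had 100 UMIs over both libraries, and the 15 genes highest against other kept barcodes outside the enzyme lists. Left out of the extremes were mitochondrially encoded, ribosomal and sex-linked genes, markers of other cell types, and genes lower in acinar than in other kept barcodes. Further list members were named after their values were seen. Promoters came from RefSeq (GRCm38.p6). One item is not reported here.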

Additional observations from a re-analysis of the deposited data

Results flagged for a closer look

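For 5 of the 82 named genes the CDS over saline ratio was past the limit of 1.5 in acinar barcodes and past it in the opposite direction in other kept barcodes. Many named genes were chosen for acinar log2 ratios far from 0. The matching share over all measured genes is not given here, so 5 cannot be called many or few. Named genes whose ratio had opposite signs without passing the limit in both sets are not counted here, and the difference between the 2 sets was not tested, as each group had 1 library. Serpini2, a pancreas-rich serpin, had a log2 ratio of 2.53 in acinar and of -0.72 in other kept barcodes, on only 16 saline and 55 CDS acinar UMIs. Lcn2 (lipocalin) had -1.17 and 1.597, with at least 50% of its saline acinar UMIs in 2 barcodes. In enzyme-rich acinar barcodes Lcn2 stood at 0.30, on 19 UMIs over both libraries. The glycolytic genes Eno1, Gapdh and Pkm had -1.10, -0.91 and -0.90 in acinar barcodes and 0.82, 0.90 and 0.68 in the others. In enzyme-rich acinar barcodes Eno1, Gapdh and Pkm stood at 0.91, 0.87 and 0.55, on 47, 323 and 79 UMIs over both libraries.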

How the results depend on the processing

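No paired analysis was possible because each group had 1 library. The acinar share (0.794% saline, 0.764% CDS) was 1.30% and 1.40% at an enzyme limit of 1%, 0.561% and 0.530% at 10%, 0.328% and 0.436% at 25%, 0.621% and 0.546% at an insulin limit of 5%, 1.58% and 3.55% with the looser and 0.556% and 0.497% with a stricter barcode filter (1000 genes, 2000 UMIs, 10% mitochondrial). Rule genes held 24.6% of summed saline acinar UMIs, and 32.5% at the 10% limit, 44.0% at 25%, 24.9% with the looser and 21.7% with the stricter filter. In the CDS library they held 33.1%, and 39.2%, 40.2% and 31.9% at the 10% limit, the 25% limit and the looser filter. Genes higher in the CDS library (380) numbered 83 with plain CPM, 114 with CPM without rule, hormone and mitochondrially encoded genes, 112 with at least 200 UMIs, 2897 with no UMI filter, 179 at the 25% limit and 572 by the mean over barcodes. Lower genes (495) numbered 1519, 1206, 67 and 2666 under the first 4 of these, 263 at the 10% limit and 145 at 25%. Genes higher in acinar than in other barcodes (515) numbered 291 with all genes in the total and 323 against others with insulin under 25%, and lower genes (403) numbered 959, 833 and, at the 10% limit, 213.

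Some log2 ratios turned. At the 25% limit they were -0.019 for Amy1, -0.048 for Gamt, -0.11 for Cabp2, -0.16 for Nupr1, 0.87 for Gapdh and 0.55 for Pkm. Another 11 named genes turned there on fewer than 50 UMIs over both libraries, too few to count as measured: Mecom (3.11), Fos and Jun (2.11 each), Pmepa1 (1.11), Procr (1.02), Eno1 (0.91), Krt20 (0.76), Lcn2 (0.30), Atf3 (0.11), Slc16a10 (-0.16) and Meg3 (-1.18). At the 10% limit they were -1.26 for Meg3 and 0.33 for Krt20. By the mean over barcodes they were -0.34 for Amy1, -0.058 for Ssr4, -0.036 for Atp5l, 0.24 for Mecom, 0.042 for Atf3 and 0.91 for Fosb. Fewer genes reach the UMI minimum in smaller sets, and otherwise the cause was not tested. Of the 48 higher and 21 lower named genes, DESeq2 size factors and the length adjustment each kept 48 and 21, plain CPM 28 and 21, the 10% limit 43 and 18, and the 25% limit 36 and 8, with 2 lower genes without a value. Leaving out the deepest barcode of each library, barcodes with markers of other cells, or those of 10% insulin or more was chosen after seeing the data.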
